A study of Mus musculus with 1615 samples.

Results

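The platelet-derived growth factor (PDGF) genes Pdgfa, Pdgfb, Pdgfc and Pdgfd, their receptor genes Pdgfra and Pdgfrb, and Cspg4 were followed across the cell classes and reporter lines of mouse colon. These are 7 of 46517 gene identifiers in the deposited count table, found by matching Ensembl identifiers to the 7 symbols in the GENCODE vM21 annotation of GRCm38. The data are 1615 Smart-Seq2 libraries, each made from a cell sorted into a plate well, from 11 mice on 13 plates. The labels give the organ as colon, but the protocol text speaks of dissociated heart, and they give 8 to 30 weeks of age for every mouse.

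Each mouse belonged to 1 of 5 reporter lines, written here as in the labels. ACTA2GFP:CSPG4dsRED gave 1106 cells, from the females 20GG79:1 (359 cells) and 20GG95:3 (505) and the male 20GG79:6 (242). All mice of the other lines were labelled male. ACTA2GFP gave 13 cells, from 19CB34:7 and 19CB38:5. CSPG4dsRED gave 117 cells, all from 19CB27:3. PDGFRaH2bGFP gave 91 cells, from 18CB109:10 (28) and 18CB39:3 (63). PDGFRbGFP gave 288 cells, from 17E61:24 (199), 18CB155:7 (9) and 19CB4:5 (80). No treatment is labelled. Neither the alleles nor the background strain nor how the sort was gated is stated in the labels, so which cells of a line were fluorescent, or were sorted for it, is unknown. Line, plate and mouse go together, and 20GG95:3 and 17E61:24 alone were spread over more than 1 plate.

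PDGF chains pair into dimers that bind and activate receptor tyrosine kinases. The PDGF-A and PDGF-C chains bind mainly the alpha receptor, PDGF-D the beta receptor and PDGF-B both. In blood vessels, PDGF-B made by endothelium draws pericytes, which carry the beta receptor, to the vessel wall. The alpha receptor is known from fibroblasts and the mesenchyme under the gut epithelium, and NG2, the proteoglycan encoded by Cspg4, from pericytes, vascular smooth muscle and glial precursors.

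The classes separated these genes clearly. Pdgfrb was highest in pericyte-like cells and Cspg4 in pericyte-like and vascular smooth muscle-like cells. Pdgfra was highest in fibroblast-like cells. Among ligands, Pdgfa was highest in glia-like cells, Pdgfb in glia-like and blood endothelium-like cells, Pdgfc in visceral smooth muscle-like cells and Pdgfd in blood endothelium-like cells. The 2 lines named after PDGF receptors gave mostly blood endothelium-like cells, a class low in the transcripts of both receptors. The lines named after Cspg4 gave more Cspg4 transcript than all others.

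The cells had 45388 to 1046988 gene counts each (median 194180), and plate medians spanned 103035 to 438820. Clustering without the 7 genes gave 18 clusters in 9 classes, each named by its markers with the ending -like. Classes held 550 visceral smooth muscle-like cells from 3 mice, 359 blood endothelium-like cells from 6 mice, 219 fibroblast-like cells from 8 mice, 188 pericyte-like cells from 3 mice and 93 vascular smooth muscle-like cells from 2 mice. Smaller classes were 78 lymphatic endothelium-like, 57 epithelium-like, 41 glia-like and 30 immune-like cells. Every class carried its defining marker, such as Rgs5 in pericyte-like cells at 3168 to 4710 CPM (counts scaled to one common total of gene counts) and Pecam1 in blood endothelium-like cells at 2445 to 3715 CPM. In 139 cells at least 2 markers of another class (mural classes counted as 1 kind, endothelial ones as another) were above that class's median, 88 of them in the visceral smooth muscle-like class. No doublet caller was run.

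Some sums stood apart. Blood endothelium-like cells of 19CB4:5 had 2810 CPM summed over 8 fibroblast markers, with all 8 at 10 CPM or more, while the other 5 mice had 110 to 940 CPM. Epithelium-like cells of 20GG79:6 (6 cells) had 9903 CPM of the same markers and those of 18CB155:7 (5 cells) had 6127 CPM, against 322 CPM in 17E61:24 and 614 CPM in 19CB27:3. 20GG95:3 gave 2 fibroblast-like cells among 505. Different clusters also held a class in different mice. Blood endothelium-like cells were cluster 5 in 17E61:24, cluster 7 in 19CB4:5, cluster 9 in 20GG79:6 and cluster 3 in the other 3 mice, and pericyte-like cells were cluster 10 in 20GG79:1 and 20GG79:6 and mostly cluster 14 in 20GG95:3. Of visceral smooth muscle-like cells most were in cluster 12 in 20GG79:1, cluster 11 in 20GG79:6 and clusters 16, 13 and 12 in 20GG95:3.

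Levels below are CPM of counts summed over the cells of a mouse and class with at least 5 cells. Mice, not cells, are the replicates. The spread behind a p-value between classes is estimated from these animals together with the spread of other genes. Contrasts of 2 mice leave 1 residual degree of freedom, so there it leans mainly on other genes. Very small p-values there thus do not measure the spread between those 2 animals alone. Because each library is read-counted without molecular identifiers, intervals and floors cover counting error only. Differences between classes were tested within mice by edgeR's quasi-likelihood test with the mouse as a block, with Benjamini-Hochberg adjustment over all genes tested and not used for clustering. An adjusted p of at most 0.05 passed. The cells that made the classes also made the sums, so no call supports the classes themselves.

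In 3 mice with both pericyte-like and visceral smooth muscle-like cells, 4 of the 7 genes passed, against 1.61% of 14134 genes tested. Of the 4, 3 were higher in pericyte-like cells, where 0.792% of all genes were, and 1 in visceral smooth muscle-like cells, where 0.814% were. Visceral against vascular smooth muscle-like cells gave 4 of 7 in 2 mice, against 3.43% of 14718 genes, 1 higher on the visceral side (1.83% of all genes) and 3 on the vascular side (1.60%).

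Fibroblast-like against pericyte-like cells gave 3 of 7 in 2 mice, against 0.439% of 14812 genes, 1 higher in fibroblast-like (0.263%) and 2 in pericyte-like cells (0.176%). Against visceral smooth muscle-like cells fibroblast-like cells gave 2 of 7 in 2 mice, against 1.04% of 15992 genes, 1 higher (0.513%) and 1 lower (0.532%). Against blood endothelium-like cells they gave 3 of 7 in 2 mice, against 2.71% of 13188 genes, 2 higher (1.37%) and 1 lower (1.33%). Members thus passed more often than genes at large in each of these 5 comparisons, which is a count of chosen genes and no test.

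Lymphatic against blood endothelium-like cells, in 4 mice, gave 1 of the 5 members that could be tested, against 2.02% of 10521 genes. That 1 was higher in blood endothelium-like cells (1.06% of all genes), and 0 were higher in lymphatic cells (0.969%). Between pericyte-like and vascular smooth muscle-like cells, in 2 mice, edgeR called 0 of 7, against 1.35% of 12985 genes (0.493% higher in pericyte-like, 0.855% in vascular cells), although Pdgfrb had an unadjusted p of 0.0015. Blood endothelium-like and pericyte-like cells shared only 20GG79:6, so they were compared in a fit over all 30 sums. There 1 of 7 passed, against 0.76% of 18293 genes, and it was higher in pericyte-like cells (0.333%, with 0.426% higher in blood endothelium-like cells).

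The median log2 fold change of the 7 genes was 1.83 for pericyte-like minus visceral smooth muscle-like cells, beside -0.12 over all genes tested. It was -2.11 beside 0.60 for visceral minus vascular smooth muscle-like cells and -2.36 beside 0.15 for fibroblast-like minus pericyte-like cells. In the other 5 comparisons the medians were closer: -0.20 beside 0.47 for pericyte-like minus vascular smooth muscle-like, 0.17 beside 0.00 for fibroblast-like minus visceral smooth muscle-like, -0.31 beside 0.14 for blood endothelium-like minus pericyte-like, 0.37 beside -0.20 for fibroblast-like minus blood endothelium-like, and -0.58 beside -0.56 for lymphatic minus blood endothelium-like cells. Members moved in both directions, so a median says little of single genes. The 17 calls from contrasts fitted within mice all kept their direction in the alternatives run. In contrasts of 2 mice, leaving out either mouse ended every call. That step also changed to the fit over all 30 sums, so the missing mouse and the change of fit cannot be told apart. Leaving out 20GG79:6 ended all 4 calls of pericyte-like against visceral smooth muscle-like cells, at adjusted p of 0.0635 for Pdgfrb and Pdgfc, 0.111 for Cspg4 and 0.121 for Pdgfb by edgeR. With no mouse left out, the fit over all 30 sums, which shares 1 estimate of spread among all classes, kept 5 of the 17.

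**Figure D1:**
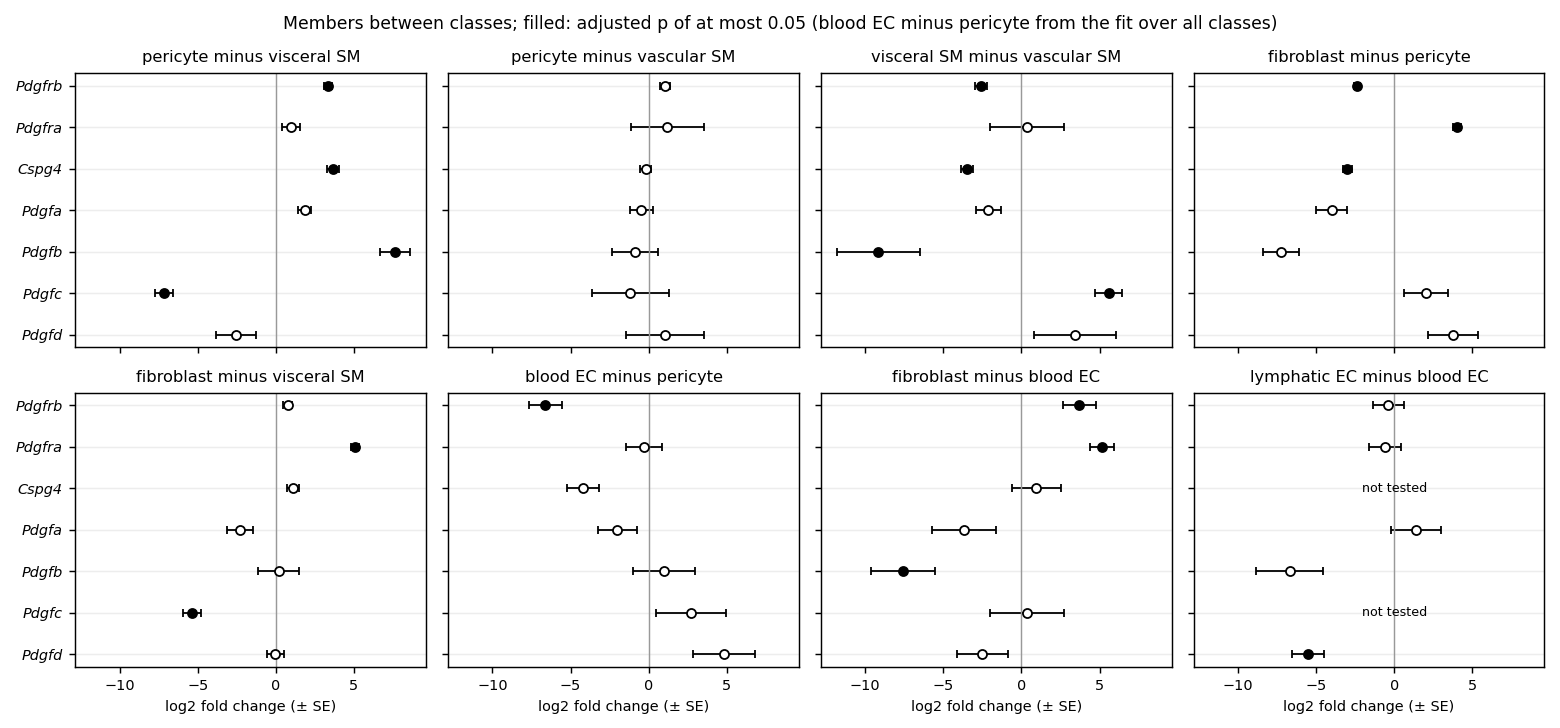
Log2 fold change of each gene (x axis, ± SE) in 8 comparisons of cell classes by edgeR, with filled points where the adjusted p was at most 0.05. Pdgfc lies far to the visceral smooth muscle side of its 3 comparisons with other mural cells or fibroblasts, Pdgfrb and Cspg4 to the pericyte or vascular side, and Pdgfra to the fibroblast side.

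Pdgfa encodes the PDGF-A chain, a ligand of the alpha receptor (ENSMUSG00000025856, chromosome 5, 138976014 to 138997370, minus strand). It was highest in glia-like cells, with 618 CPM in 20GG79:6 (21 cells) and 614 CPM in 19CB27:3 (15 cells). The glial levels came from mice of different lines and differed little, and every other class lay below them. Vascular smooth muscle-like cells had 299.8 CPM in 20GG79:1 (5 cells) and 90.0 CPM in 20GG95:3 (88 cells), and pericyte-like cells 112, 198 and 172 CPM in 20GG79:1, 20GG79:6 and 20GG95:3. Epithelium-like cells ran from 30.4 to 287 CPM over 4 mice. These 3 classes overlapped, and their order cannot be told from these mice. The visceral class had 38.5, 49.3 and 41.3 CPM in 20GG79:1, 20GG79:6 and 20GG95:3, all below every pericyte-like sum. The log2 fold change from visceral smooth muscle-like to pericyte-like cells was 1.83 ± 0.39 (SE), higher in 3 of 3 mice, and missed the threshold (adjusted p = 0.0824 by edgeR). Without the mouse block the same difference passed, with an adjusted p of 0.0482 by edgeR.

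Fibroblast-like cells had the lowest mean Pdgfa of all classes, with 0.615, 16.8, 4.56 and 2.62 CPM in 19CB38:5, 20GG79:1, 20GG79:6 and 19CB4:5. In blood endothelium-like cells the 6 mice ran from 2.14 to 62.0 CPM with a median of 41.8. The spread between mice was therefore wide, and the 2 lowest, 19CB27:3 and 18CB39:3, were of different lines. After each cell was thinned to 45000 gene counts, 92.7% of glia-like cells (95% Clopper-Pearson interval 80.1 to 98.5) had a Pdgfa count. The shares were 63.4% in vascular smooth muscle-like, 48.4% in pericyte-like and 12.8% in fibroblast-like cells. Without thinning these shares were 95.1%, 71.0%, 58.0% and 36.5%, at median depths of 207054, 166976, 122818 and 276245 counts per cell.

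Pdgfb encodes the PDGF-B chain, the ligand known for pericyte recruitment (ENSMUSG00000000489, chromosome 15, 79995874 to 80014977, minus strand). In blood endothelium-like cells it ran from 93.1 to 159 CPM over 6 mice with a median of 121. It had 186 CPM in glia-like cells of 20GG79:6 and 185 CPM in those of 19CB27:3. Immune-like cells had 126 CPM in 19CB27:3, where 5 of 20 cells held a count, and 10.1 CPM in 20GG79:6 (5 cells), so 1 of their sums lay within the endothelial range. The endothelial level varied little between mice although different clusters held the class, and every endothelial sum lay below both glial sums. Markers of blood endothelium summed to 39.8 and 64.5 CPM in the glia-like sums, with Cdh5 at 0.86 CPM in 20GG79:6 and 1.96 CPM in 19CB27:3, against 220 to 781 CPM in blood endothelium-like cells.

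Mural cells held Pdgfb too. Pericyte-like cells had 29.6 CPM in 20GG79:1, 131 CPM in 20GG79:6 and 32.4 CPM in 20GG95:3, and vascular smooth muscle-like cells 52.1 and 45.2 CPM in 20GG79:1 and 20GG95:3. Among visceral smooth muscle-like cells Pdgfb was 0.0614, 1.57 and 0.113 CPM in 20GG79:1, 20GG79:6 and 20GG95:3, from 41 counts over 550 cells. Every pericyte-like sum was above every visceral sum. Pdgfb was higher in pericyte-like than in visceral smooth muscle-like cells by a log2 fold change of 7.64 ± 0.96 (64.5 ± 58.0 against 0.582 ± 0.858 CPM, SD, n = 3, adjusted p = 0.0171 by edgeR). It was lower in visceral than in vascular smooth muscle-like cells, with a log2 fold change of -9.16 ± 2.66 over 2 mice (adjusted p = 0.0206 by edgeR). That call was lost without the mouse block, at an adjusted p of 0.0620 by edgeR, and without the larger plate of 20GG95:3 (319 cells), at 0.0723.

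After thinning, Pdgfb was found in a minority of pericyte-like cells, and the share depended on the mouse. Pooled over mice, a count was found in 11.2% of them (7.05 to 16.6), against 35.1% of blood endothelium-like cells (30.2 to 40.3) and 1.46% of visceral smooth muscle-like cells. Without thinning the shares were 18.6%, 56.6% and 4.73%. By mouse, the pericyte-like share after thinning was 10.3% in 20GG79:1, 25.8% in 20GG79:6 and 7.07% in 20GG95:3. Before thinning it was 13.8%, 58.1% and 9.09%. In 20GG95:3 the level differed by plate, with 69.4 CPM in the 36 cells of its smaller plate and 7.49 CPM in the 63 cells of its larger one. Blood endothelial markers in pericyte-like cells summed to 247, 138 and 216 CPM in 20GG79:1, 20GG79:6 and 20GG95:3, mostly Plvap, with Cdh5 at 0 in 20GG79:1 and at 1.43 and 0.179 CPM in the others. Their part in the Pdgfb level was not tested.

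Fibroblast-like cells had nearly no Pdgfb, with 0 CPM in 19CB38:5 and 19CB4:5, 0.132 CPM in 20GG79:1 and 1.05 CPM in 20GG79:6. Against blood endothelium-like cells of the same 2 mice, 19CB4:5 and 20GG79:6, the log2 fold change was -7.60 ± 2.06 (0 and 1.05 against 93.1 and 124 CPM, adjusted p = 0.0120 by edgeR). Without the filter on low counts that call was lost, with an adjusted p of 0.0635 by edgeR. In lymphatic endothelium-like cells 18CB109:10 and 18CB39:3 had 0 counts, 17E61:24 had 1.65 CPM and 19CB27:3 had 94.9 CPM. Lymphatic cells of 19CB27:3 alone reached the blood endothelial range, and Pdgfb did not pass between the 2 endothelial classes (log2 fold change -6.70 ± 2.17, lower in 4 of 4 mice, adjusted p = 0.199 by edgeR). DESeq2 gave an adjusted p of 7.71e-06 for the same difference, and edgeR without the filter on low counts 0.00821.

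Pdgfc encodes the PDGF-C chain, which is secreted in a latent form and acts through the alpha receptor (ENSMUSG00000028019, chromosome 3, 81036416 to 81214040, plus strand). Visceral smooth muscle-like cells had 313 CPM in 20GG79:1, 218 CPM in 20GG79:6 and 211 CPM in 20GG95:3. Immune-like cells came next with 83.9 CPM in 19CB27:3 (20 cells) and 32.4 CPM in 20GG79:6 (5 cells). In pericyte-like cells the same 3 mice had 3.96, 0.648 and 1.61 CPM, and in vascular smooth muscle-like cells 20GG79:1 and 20GG95:3 had 3.21 and 6.92 CPM. The groups did not overlap: the lowest visceral sum was above every sum of any other class.

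Pdgfc was lower in pericyte-like than in visceral smooth muscle-like cells by a log2 fold change of -7.18 ± 0.56 (2.07 ± 1.70 against 247 ± 57.1 CPM, n = 3, adjusted p = 0.00623 by edgeR). It was higher in visceral than in vascular smooth muscle-like cells by 5.58 ± 0.89 on the log2 scale (262 ± 72.2 against 5.06 ± 2.62 CPM, n = 2, adjusted p = 4.76e-08 by edgeR). Fibroblast-like cells had 15.1 CPM in 20GG79:1 and 2.49 CPM in 20GG79:6, and their log2 fold change from visceral smooth muscle-like cells was -5.37 ± 0.60 (adjusted p = 0.0203 by edgeR). That last call was lost without the mouse block, at an adjusted p of 0.0709. Glia-like cells had 0.86 CPM in 20GG79:6 and 0 in 19CB27:3, and lymphatic endothelium-like cells held 2 counts in 74 cells. Blood endothelium-like cells ran from 0 to 1.23 CPM in 5 mice and reached 36.4 CPM in 19CB27:3, where 2 of 57 cells held all 323 counts.

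Within the visceral smooth muscle-like class Pdgfc was uneven. Cluster 13, whose leading genes included Shisa3 and Ano1, had 117, 17.5 and 67.8 CPM in 20GG79:1 (7 cells), 20GG79:6 (10) and 20GG95:3 (93). Cluster 12 had 328 CPM in 20GG79:1 (148 cells) and 322 CPM in 20GG95:3 (58), cluster 11 had 245 CPM in 20GG79:6 (61), and clusters 16 and 17 had 226 and 276 CPM in 20GG95:3 (144 and 21). In each of the 3 mice cluster 13 was thus the lowest of the visceral clusters with at least 5 cells. Since clusters are drawn from the same cells, this is a description and was not tested. Thinned cells of the whole class had a Pdgfc count in 58.4% of 550 (54.1 to 62.5), against 1.67% of blood endothelium-like cells and 11.2% of pericyte-like cells. Without thinning these shares were 72.0%, 4.74% and 24.5%.

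Pdgfd encodes the PDGF-D chain, a ligand of the beta receptor (ENSMUSG00000032006, chromosome 9, 6168584 to 6378850, plus strand). Blood endothelium-like cells ran from 80.7 to 314 CPM over 6 mice with a median of 173, and every one of these sums was above those of all other classes. The extremes were 20GG79:6 and 19CB27:3, and the 4 mice of the PDGF receptor lines lay between them. Fibroblast-like cells had 0.615, 63.0, 34.6 and 6.11 CPM in 19CB38:5, 20GG79:1, 20GG79:6 and 19CB4:5, and visceral smooth muscle-like cells 40.1, 58.3 and 11.4 CPM in 20GG79:1, 20GG79:6 and 20GG95:3. Those 2 classes overlapped, with a log2 fold change of -0.05 ± 0.55 between them (adjusted p = 0.999 by edgeR).

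Lymphatic endothelium-like cells held much less Pdgfd than blood endothelium-like cells of the same mice. Their levels were 19.8 CPM in 19CB27:3, 1.93 CPM in 18CB109:10, 0.814 CPM in 18CB39:3 and 6.65 CPM in 17E61:24, all below every blood endothelial sum. The log2 fold change was -5.53 ± 1.04 (7.30 ± 8.70 against 210 ± 69.2 CPM, lower in 4 of 4 mice, adjusted p = 0.0246 by edgeR). Leaving out 17E61:24 or 19CB27:3 ended this call, at adjusted p of 0.0632 and 0.114. Pericyte-like cells had 1.23, 10.1 and 10.3 CPM in 20GG79:1, 20GG79:6 and 20GG95:3, and vascular smooth muscle-like cells 0.80 and 3.10 CPM in 20GG79:1 and 20GG95:3. The step from visceral smooth muscle-like to pericyte-like cells was -2.55 ± 1.26 on the log2 scale and did not pass (adjusted p = 0.475 by edgeR, 0.0395 by DESeq2).

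Within visceral smooth muscle-like cells 1 sum stood out for Pdgfd: cluster 13 of 20GG79:6, with 354 CPM in 10 cells, against 20.1 CPM in cluster 11 of that mouse. In 20GG79:1 cluster 13 had 31.6 CPM and cluster 12 had 41.5 CPM, so the order was the opposite there. In 20GG95:3 cluster 13 had 27.3 CPM and clusters 12, 16 and 17 had 0.311, 9.38 and 0 CPM. The share of thinned cells with a Pdgfd count was 38.4% of blood endothelium-like cells (33.4 to 43.7), 27.4% of fibroblast-like cells and 8.91% of visceral smooth muscle-like cells. Pdgfb and Pdgfd were found together in 51 of 359 thinned blood endothelium-like cells (14.2%), beside 13.5% if detection of each were unrelated to the other.

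**Figure D2:**
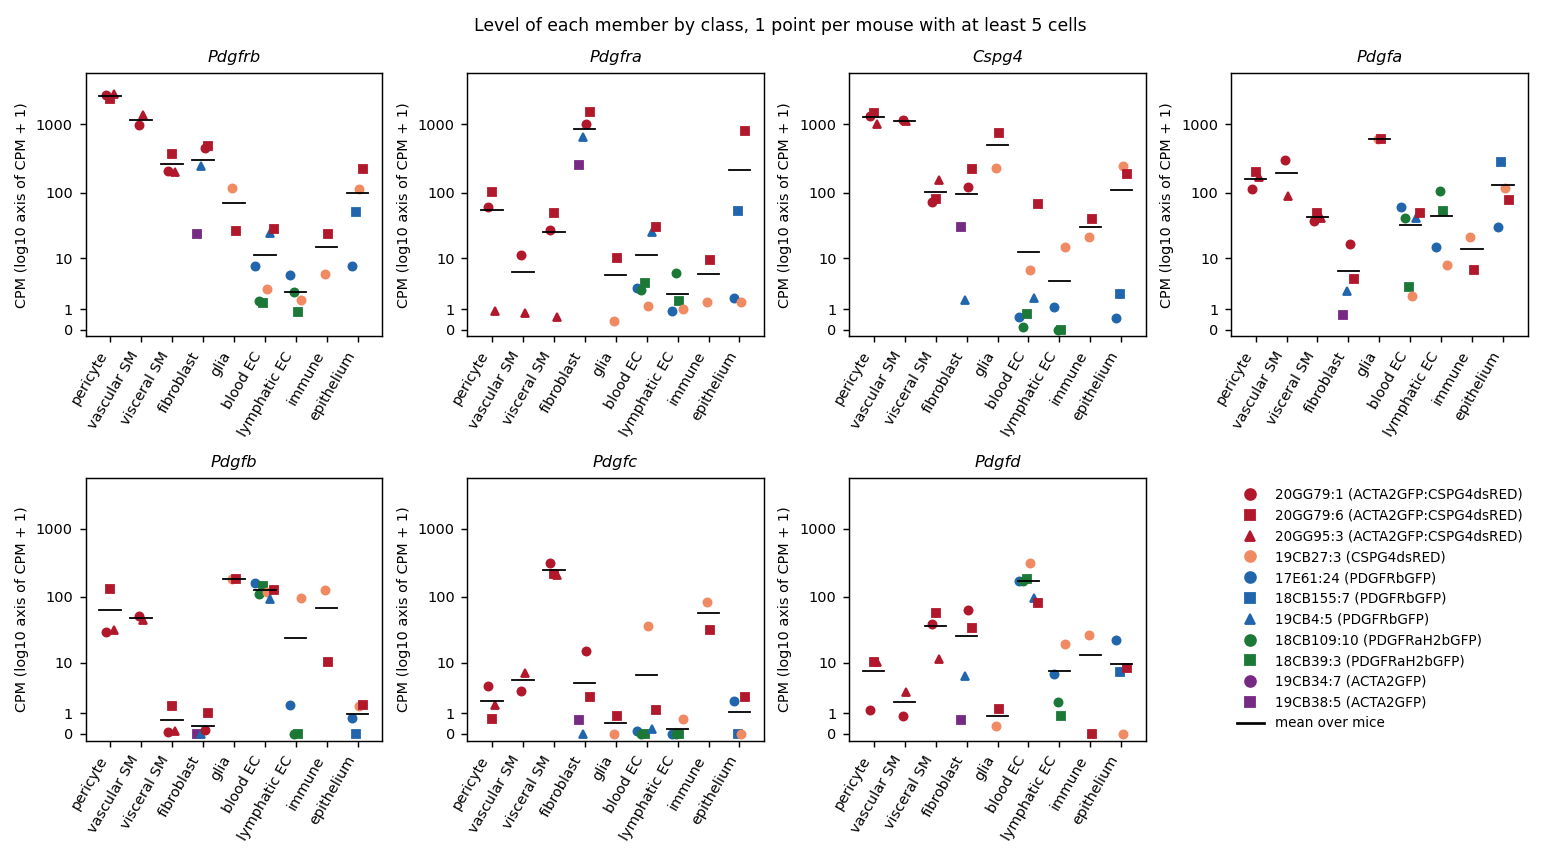
CPM of each gene (y axis, log10 axis of CPM + 1) in each class, with 1 point per mouse with at least 5 cells, coloured by reporter line, and a bar at the mean over mice. Pdgfc stands highest in visceral smooth muscle-like cells, Pdgfd in blood endothelium-like cells, Pdgfa in glia-like cells and Pdgfra in fibroblast-like cells, where 1 epithelium-like point at 814 CPM lies among the fibroblast-like points.

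**Figure D3:**
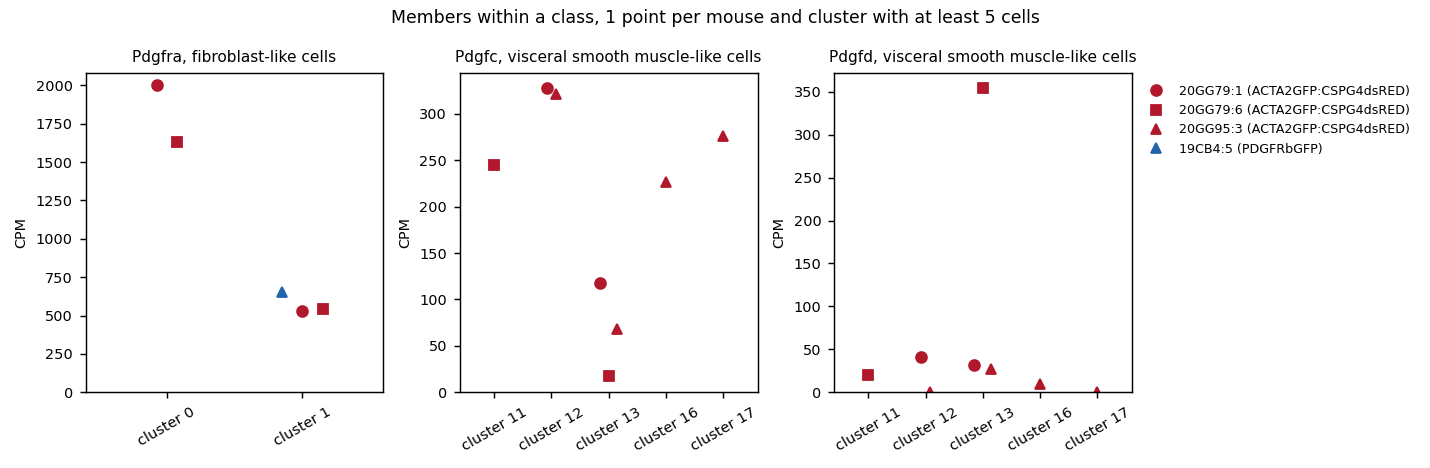
CPM (y axis, linear) of Pdgfra in the fibroblast-like clusters and of Pdgfc and Pdgfd in the visceral smooth muscle-like clusters, with 1 point per mouse and cluster with at least 5 cells. Cluster 0 lies above cluster 1 for Pdgfra, cluster 13 lies lowest for Pdgfc, and 1 point of cluster 13 at 354 CPM stands apart for Pdgfd.

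Pdgfra encodes the alpha receptor (ENSMUSG00000029231, chromosome 5, 75152292 to 75198215, plus strand). Fibroblast-like cells had 1015 CPM in 20GG79:1 (129 cells), 1516 CPM in 20GG79:6 (69 cells), 654 CPM in 19CB4:5 (5 cells) and 257 CPM in 19CB38:5 (5 cells). All other sums lay below these except that of epithelium-like cells of 20GG79:6, at 814 CPM. That sum of 6 cells also held 9903 CPM of fibroblast markers, with all 8 markers at 10 CPM or more. The other epithelium-like sums had 1.53 CPM in 19CB27:3, 1.88 CPM in 17E61:24 and 52.8 CPM in 18CB155:7, the last again with 6127 CPM of fibroblast markers.

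Pdgfra was higher in fibroblast-like than in pericyte-like cells of 20GG79:1 and 20GG79:6 by a log2 fold change of 4.03 ± 0.26 (1266 ± 354 against 82.2 ± 29.2 CPM, adjusted p = 0.0180 by edgeR). Against visceral smooth muscle-like cells of the same mice the log2 fold change was 5.07 ± 0.25 (adjusted p = 0.00397 by edgeR). Against blood endothelium-like cells of 19CB4:5 and 20GG79:6 it was 5.17 ± 0.76 (1085 ± 609 against 28.3 ± 3.99 CPM, adjusted p = 7.13e-09 by edgeR). Without the cells of mixed markers the difference from pericyte-like cells was 4.98 and no longer passed, at an adjusted p of 0.0617 by edgeR.

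Pdgfra in mural cells depended on the mouse. Pericyte-like cells had 61.6 CPM in 20GG79:1, 103 CPM in 20GG79:6 and 0.895 CPM in 20GG95:3. Visceral smooth muscle-like cells followed the same order, with 27.8, 49.3 and 0.508 CPM, and vascular smooth muscle-like cells had 11.2 CPM in 20GG79:1 and 0.725 CPM in 20GG95:3. 20GG95:3 was thus low in all 3 classes. The share of fibroblast-like cells was 35.9% in 20GG79:1 and 28.5% in 20GG79:6 but 0.396% in 20GG95:3, and the part of that difference in the mural levels was not tested. The 8 fibroblast markers summed to 6365, 5861 and 6372 CPM in pericyte-like cells of 20GG79:1, 20GG79:6 and 20GG95:3, and Dcn had 602, 713 and 1124 CPM.

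Fibroblast-like cells fell into 2 clusters that differed in Pdgfra. Cluster 0 had 2005 CPM in 20GG79:1 (38 cells) and 1634 CPM in 20GG79:6 (63 cells). Cluster 1 had 528 CPM in 20GG79:1 (91 cells), 543 CPM in 20GG79:6 (6 cells) and 654 CPM in 19CB4:5 (5 cells). The 2 clusters did not overlap, which is a description, as they come from the same cells. Pdgfra was not used to form them, but genes that vary with it were.

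Of 8 genes known from the fibroblasts under the gut epithelium, 8 were higher in cluster 0 with no overlap between the sums of the clusters. Of 13491 genes with a mean of at least 1 CPM and no part in the clustering, 15.4% were higher in cluster 0 and 5.92% in cluster 1 in this way, and a split made from the same cells parts many genes. Foxl1, a transcription factor of those cells, had 185 and 218 CPM in cluster 0 and 5.32 to 62.9 CPM in cluster 1. The bone morphogenetic protein genes Bmp3, Bmp5 and Bmp7 had 246 and 362, 1295 and 878, and 1108 and 1074 CPM against 1.74 to 26.6, 165 to 359 and 14.8 to 308 CPM. Wnt5a, a secreted signal, had 856 and 516.4 CPM against 27.04 to 80.2 CPM, and F3, tissue factor, 1003 and 627 CPM against 58.4 to 139 CPM. The last of the 8, Sox6 and Nrg1, had 182 and 178 CPM against 0 to 28.1 CPM, and 81.8 and 45.6 CPM against 0.887 to 4.36 CPM.

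Of 6 genes known from fibroblasts deeper in the wall, 3 were higher in cluster 1 in every sum. Cd34 had 143 and 315 CPM in cluster 0 against 1025 to 1766 CPM in cluster 1, Cd81 60.2 and 63.7 against 177 to 508 CPM, and Pi16 2.72 and 0.699 against 107 to 189 CPM. The sums of the other 3 overlapped: Grem1, a BMP antagonist, had 3.44 and 93.4 CPM against 64.6 to 269 CPM, Ackr4 14.9 and 7.63 against 0 to 52.3 CPM, and Rspo3 0.32 and 4.36 against 0 to 134 CPM. Kcnn3 and P2ry1, known from the alpha receptor-positive cells of the muscle layer, overlapped too, with 117 and 138 against 10.5 to 232 CPM and 64.8 and 90.7 against 20.1 to 126 CPM. Pdgfrb, in contrast, differed little, with 387 and 506.4 CPM in cluster 0 and 490, 329 and 242 CPM in cluster 1 of 20GG79:1, 20GG79:6 and 19CB4:5.

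Blood endothelium-like cells had 1.24 to 31.1 CPM of Pdgfra over 6 mice with a median of 3.44. The 2 highest were 20GG79:6 with 31.1 CPM and 19CB4:5 with 25.5 CPM. In 20GG79:6, a single cell outside cluster 9 held most of the counts, and the 32 cells of cluster 9 had 10.4 CPM. In 19CB4:5 the fibroblast markers were also high, as given above. The share of thinned blood endothelium-like cells with a Pdgfra count was 20.9%, against 93.6% of fibroblast-like cells (89.5 to 96.5) and 5.13% of lymphatic endothelium-like cells. Without thinning these shares were 40.4%, 97.7% and 26.9%, at median depths of 237402, 276245 and 207658 counts per cell, so a share of cells with any Pdgfra read was no measure of level.

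Pdgfrb encodes the beta receptor (ENSMUSG00000024620, chromosome 18, 61045150 to 61085061, plus strand). Pericyte-like cells had 2733 CPM in 20GG79:1 (58 cells), 2368 CPM in 20GG79:6 (31 cells) and 2828 CPM in 20GG95:3 (99 cells). Vascular smooth muscle-like cells had 971 CPM in 20GG79:1 (5 cells) and 1389 CPM in 20GG95:3 (88 cells). Lower still were visceral smooth muscle-like cells, with 209, 375 and 200 CPM in 20GG79:1, 20GG79:6 and 20GG95:3. The 3 muscle and mural classes therefore formed an order with no overlap between neighbours.

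The drop from pericyte-like to visceral smooth muscle-like cells had a log2 fold change of 3.35 ± 0.27 (2643 ± 243 against 261 ± 98.3 CPM, n = 3, adjusted p = 0.00623 by edgeR). Between visceral and vascular smooth muscle-like cells it was -2.57 ± 0.37 (n = 2, adjusted p = 7.85e-10 by edgeR), which DESeq2 did not call (adjusted p = 0.0769). The step from vascular smooth muscle-like to pericyte-like cells was 1.03 ± 0.33 (2780 ± 67.6 against 1180 ± 296 CPM, n = 2) and missed the threshold, with an adjusted p of 0.0916 by edgeR. Without cells of mixed markers the same step was 1.12 and passed, with an adjusted p of 0.0327 by edgeR. Within 20GG95:3 the step held on both plates, with 3662 against 1689 CPM on the smaller and 2267 against 997 CPM on the larger. Cluster 10 of that mouse (14 cells) had 4197 CPM and cluster 14 (85 cells) 2527 CPM, both above its vascular smooth muscle-like cells.

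Fibroblast-like cells had 456 CPM of Pdgfrb in 20GG79:1, 487 CPM in 20GG79:6, 242 CPM in 19CB4:5 and 24.0 CPM in 19CB38:5. They were below pericyte-like cells of the same mice by a log2 fold change of -2.36 ± 0.20 (456 and 487 against 2733 and 2368 CPM, n = 2, adjusted p = 0.0344 by edgeR). They did not part from visceral smooth muscle-like cells, at 0.75 ± 0.27 (adjusted p = 0.340 by edgeR). They were above blood endothelium-like cells of 19CB4:5 and 20GG79:6 by a log2 fold change of 3.7 ± 1.05 (adjusted p = 0.0207 by edgeR), a call lost under DESeq2's kind of size factors (RLE) in edgeR, at 0.0924. Most fibroblast-like cells held both receptors: 181 of 219 thinned cells had counts of Pdgfra and Pdgfrb (82.7%), beside 82.1% if detection of each were unrelated to the other. The single shares of 93.6% and 87.7% left the joint share little room.

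Blood endothelium-like cells had 1.48 to 28.6 CPM of Pdgfrb over 6 mice with a median of 5.20, and the highest were again 20GG79:6 and 19CB4:5 (25.3 CPM). In 20GG79:6, the mouse with both classes, the level was 28.6 CPM in blood endothelium-like and 2368 CPM in pericyte-like cells. The log2 fold change in the fit over all classes was -6.63 ± 1.05 (adjusted p = 0.00409 by edgeR). Pericyte markers in blood endothelium-like cells summed to 2.29 to 66.7 CPM, against 8039 to 9510 CPM in pericyte-like cells. Lymphatic endothelium-like cells had 0.814 to 5.34 CPM and did not part from blood endothelium-like cells (log2 fold change -0.37 ± 0.97, adjusted p = 0.939 by edgeR). The thinned share with a Pdgfrb count was 96.8% in pericyte-like, 93.5% in vascular and 62.0% in visceral smooth muscle-like cells, 29.5% in blood and 16.7% in lymphatic endothelium-like cells. Without thinning it was 98.9%, 100%, 83.1%, 61.3% and 56.4%.

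Cspg4 encodes NG2, a proteoglycan of the cell surface that can bind PDGF-A dimers (ENSMUSG00000032911, chromosome 9, 56865033 to 56899870, plus strand). Pericyte-like cells had 1310, 1473 and 1017 CPM in 20GG79:1, 20GG79:6 and 20GG95:3, and vascular smooth muscle-like cells 1158 CPM in 20GG79:1 and 1110 CPM in 20GG95:3. These 2 classes overlapped, and their log2 fold change was -0.20 ± 0.37 (adjusted p = 0.999 by edgeR). Its sign turned in 3 alternatives, so no direction is given. The visceral class had 72.8 CPM in 20GG79:1, 79.9 CPM in 20GG79:6 and 181 and 131 CPM on the 2 plates of 20GG95:3, below every pericyte-like and vascular sum. They were lower than pericyte-like cells, which exceeded them by a log2 fold change of 3.66 ± 0.39 (1267 ± 231 against 103 ± 45.5 CPM, n = 3, adjusted p = 0.0124 by edgeR). Against vascular smooth muscle-like cells the difference was -3.48 ± 0.40 (n = 2, adjusted p = 1.8e-15 by edgeR).

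By the mean over mice glia-like cells came next in Cspg4, with 761 CPM in 20GG79:6 and 231 CPM in 19CB27:3, both mice of lines named after Cspg4. Epithelium-like cells had 248 CPM in 19CB27:3, above the glia-like cells there, and 185 CPM in 20GG79:6. They had 2.34 CPM in 18CB155:7 and 0.470 CPM in 17E61:24. Fibroblast-like cells had 30.8 CPM in 19CB38:5, 122 CPM in 20GG79:1, 222 CPM in 20GG79:6 and 1.74 CPM in 19CB4:5. The 2 mice of the dual line were the highest, and the fibroblast-like cells of the PDGFRbGFP mouse the lowest. In the dual-line mice fibroblast-like cells were below pericyte-like cells by -3.01 ± 0.28 on the log2 scale (172 ± 70.3 against 1392 ± 115 CPM, n = 2, adjusted p = 0.0430 by edgeR), a call lost without the mouse block (0.0608) and without cells of mixed markers (0.0577). Immune-like cells had 40.4 CPM in 20GG79:6 and 21.99 CPM in 19CB27:3.

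Pdgfrb and Cspg4 were found together in 157 of 188 thinned pericyte-like cells (83.5%), 87 of 93 vascular smooth muscle-like cells and 177 of 550 visceral smooth muscle-like cells (32.2%). Unrelated detection would give 82.9% in pericyte-like and 32.2% in visceral smooth muscle-like cells. In glia-like cells Pdgfa and Cspg4 were found together in 37 of 41 (90.2%), beside 90.4% for unrelated detection. In none of these pairs and classes did joint detection exceed the product of the single shares by more than 0.60 percentage points. In most it hardly could, as 1 gene was found in nearly every cell. Pdgfrb was in 96.8% of pericyte-like cells, and Cspg4 in 100% of vascular smooth muscle-like and 97.6% of glia-like cells. Only the visceral class, with Pdgfrb in 62% and Cspg4 in 52%, left much room. Other pairs differed more, in both directions. Pdgfra and Pdgfrb were together in 19.45% of visceral smooth muscle-like cells, beside 14.4% for unrelated detection. Pdgfc and Pdgfrb were together in 6.67% of the 30 immune-like cells, beside 14%. Cells were pooled over mice here, so differences between mice enter these shares.

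Levels of different genes were compared only per length, as CPM per kb of exon, with means over mice ± SD. In pericyte-like cells Pdgfrb had 482 ± 44.3 and Cspg4 106 ± 19.4 CPM per kb, and in vascular smooth muscle-like cells 215 ± 54.0 and 95.1 ± 2.84. In fibroblast-like cells Pdgfra had 85.8 ± 53.4 and Pdgfrb 55.2 ± 39.3 CPM per kb, which overlapped between mice. Within each mouse Pdgfra was the higher. The values were 101.3 against 83.3 in 20GG79:1, 151.2 against 88.9 in 20GG79:6, 65.3 against 44.3 in 19CB4:5 and 25.7 against 4.38 in 19CB38:5. Among ligands the glial level of Pdgfa was the highest, at 198 ± 0.70 CPM per kb, beside 44.6 for Pdgfb there. In blood endothelium-like cells Pdgfd had 53.7 ± 26.3, Pdgfb 30.0 ± 5.67 and Pdgfa 10.7 ± 7.99 CPM per kb. Only in 20GG79:6 was Pdgfb above Pdgfd there, at 29.9 against 25.6 CPM per kb. In visceral smooth muscle-like cells the leading ligand was Pdgfc at 48.6 ± 11.2 CPM per kb, ahead of Pdgfa at 13.8 and Pdgfd at 11.6 ± 7.49.

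**Figure D4:**
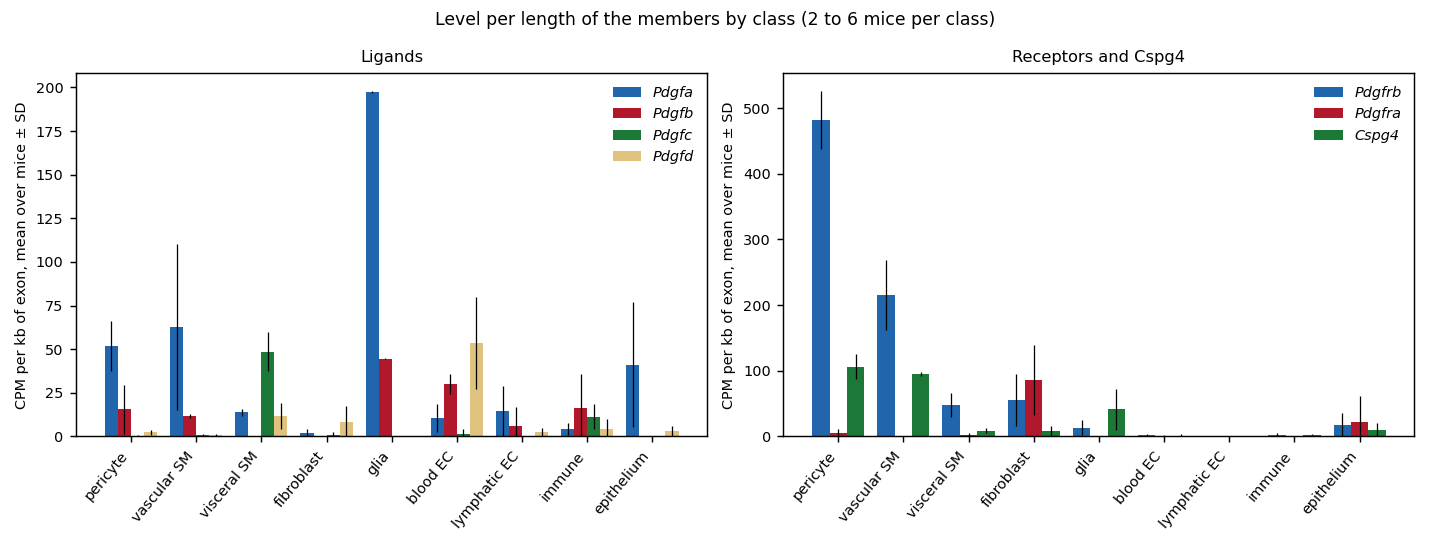
CPM per kb of exon (y axes starting at 0, mean ± SD over the 2 to 6 mice of a class) of the 4 ligands at left and the 2 receptors and Cspg4 at right, by class. By mean, the leading ligand is Pdgfa in glia-like, Pdgfc in visceral smooth muscle-like and Pdgfd in blood endothelium-like cells, and Pdgfrb at 482 CPM per kb in pericyte-like cells is the highest bar.

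The gene that names a line was then set against what the line gave. In PDGFRaH2bGFP, 76 of 91 cells (83.5%) were blood endothelium-like, 14 lymphatic endothelium-like and 1 epithelium-like. No fibroblast-like cell was found among the 91, the class with the highest Pdgfra, and in the dual line their share was 35.9% in 20GG79:1 and 28.5% in 20GG79:6 but 0.396% in 20GG95:3. Over all cells of a mouse, Pdgfra had 3.23 CPM in 18CB109:10 and 3.34 CPM in 18CB39:3. The other 9 mice ran from 0.601 to 491 CPM with a median of 112, so the mice of the line named after Pdgfra lay near the low end. In sums over all cells, fewer cells of a type and less RNA per cell cannot be told apart.

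The difference in Pdgfra between PDGFRaH2bGFP and the other mice was -3.53 on the scale of log2(CPM + 1) and did not pass (exact permutation test, two-sided, p = 0.309, adjusted over 6 line tests 0.560, smallest possible p 0.0182). In blood endothelium-like cells alone the line had 2.80 and 3.78 CPM, within the 1.24 to 31.1 CPM of the other 4 mice (difference -1.14, exact permutation p = 0.467, adjusted 0.560, smallest possible 0.0667). A Pdgfra count was present in 15.4% of the 91 cells (8.67 to 24.5) after thinning and in 38.5% before it. Beside it, 20.9% of thinned blood endothelium-like cells pooled over all lines, this one included, had one. By mouse that endothelial share was 8.70% in 18CB109:10 and 18.9% in 18CB39:3 of the line. In the other 4 mice it was 6.40% in 17E61:24, 57.35% in 19CB4:5, 5.26% in 19CB27:3 and 39.4% in 20GG79:6.

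In PDGFRbGFP, 193 of 288 cells (67.0%) were blood endothelium-like, 41 lymphatic endothelium-like, 40 epithelium-like, 10 fibroblast-like and 4 immune-like. Pericyte-like and vascular smooth muscle-like cells, the 2 classes with the most Pdgfrb, were not found among the 288, nor were visceral smooth muscle-like cells. Over all cells Pdgfrb had 7.27 CPM in 17E61:24, 185 CPM in 18CB155:7 (9 cells, 4 of them fibroblast-like) and 39.6 CPM in 19CB4:5. The other 8 mice ran from 1.72 to 796 CPM with a median of 91.6, a range that held all 3 (difference -0.59, exact permutation p = 0.794, adjusted 0.794, smallest possible 0.00606). Without 17E61:24 the sign turned, with a difference of 0.54.

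In blood endothelium-like cells alone, the PDGFRbGFP mice 17E61:24 and 19CB4:5 had 7.47 and 25.3 CPM of Pdgfrb against 1.48 to 28.6 CPM in the other 4 mice. The difference was 1.51 on the scale of log2(CPM + 1) and did not pass (exact permutation p = 0.400, adjusted 0.560). After thinning 39.6% of the line's cells, pooled over mice, had a Pdgfrb count (33.9 to 45.5). Pooled shares were 10.99% in PDGFRaH2bGFP (5.40 to 19.3) and 23.1% in CSPG4dsRED. These intervals count cells and leave out the spread between mice. By mouse the shares were 25.1% in 17E61:24, 68.75% in 19CB4:5 and 100% in 18CB155:7 (9 cells). In PDGFRaH2bGFP they were 14.3% in 18CB109:10 and 9.52% in 18CB39:3. Median depths of PDGFRbGFP, PDGFRaH2bGFP and CSPG4dsRED were 292128, 132927 and 136463 counts per cell before thinning, and the classes in the lines were not the same.

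The lines named after Cspg4 stood apart for their gene. Over all cells Cspg4 had 245, 338 and 461 CPM in the dual-line mice 20GG79:1, 20GG79:6 and 20GG95:3 and 51.7 CPM in 19CB27:3 of CSPG4dsRED. The other 7 mice ran from 0.0922 to 25.6 CPM with a median of 1.60, so the groups did not overlap. The difference was 5.82 on the scale of log2(CPM + 1) (exact permutation p = 0.00303, the smallest possible, adjusted 0.0182). With only mice of at least 10 cells the difference was 6.96 and the adjusted p 0.171, as fewer mice remained.

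What the 2 Cspg4 lines gave differed. All 188 pericyte-like and all 643 smooth muscle-like cells came from the dual line, and the 117 cells of CSPG4dsRED were 57 blood endothelium-like, 20 immune-like, 19 lymphatic endothelium-like, 15 glia-like and 6 epithelium-like cells. The 15 glia-like cells were the class of that mouse with the second highest Cspg4, at 231 CPM, beside 248 CPM in its 6 epithelium-like cells, which also had 468 CPM of pericyte markers. Blood endothelium-like cells had 66.8 CPM of Cspg4 in 20GG79:6 and 6.54 CPM in 19CB27:3, above the 0.108 to 1.89 CPM of the 4 mice of other lines. That difference of 3.74 on the scale of log2(CPM + 1) had the smallest p the 6 mice allow (exact permutation p = 0.0667, adjusted 0.200). Lymphatic endothelium-like cells had 15.1 CPM in 19CB27:3, against 0, 0 and 1.16 CPM in 18CB109:10, 18CB39:3 and 17E61:24. Pericyte markers in blood endothelium-like cells summed to 63.3 CPM in 20GG79:6 and 26.6 CPM in 19CB27:3, within the 2.29 to 66.7 CPM of the other 4 mice. Glial markers summed to 12.6 and 3.84 CPM, within 0.126 to 34.1 CPM. Vascular smooth muscle markers summed to 438.3 and 219.1 CPM, against 97.4 to 244.4 CPM in the other 4 mice. Visceral smooth muscle markers summed to 261.4 and 48.3 CPM, against 1.21 to 61.6 CPM. Acta2 had 275.5 and 139.1 CPM, above the 1.89 to 41.1 CPM of the other 4 mice. The part of muscle RNA in these Cspg4 levels was not tested.

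ACTA2GFP, the line that is named after a smooth muscle actin and no gene described here, gave 9 fibroblast-like, 3 epithelium-like and 1 glia-like cell. Over all cells its mice had 423 and 219 CPM of Pdgfra, 160 and 22.02 CPM of Pdgfrb, and 17.5 and 25.6 CPM of Cspg4 in 19CB34:7 and 19CB38:5. Those numbers rest on 5 and 8 cells.

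**Figure D5:**
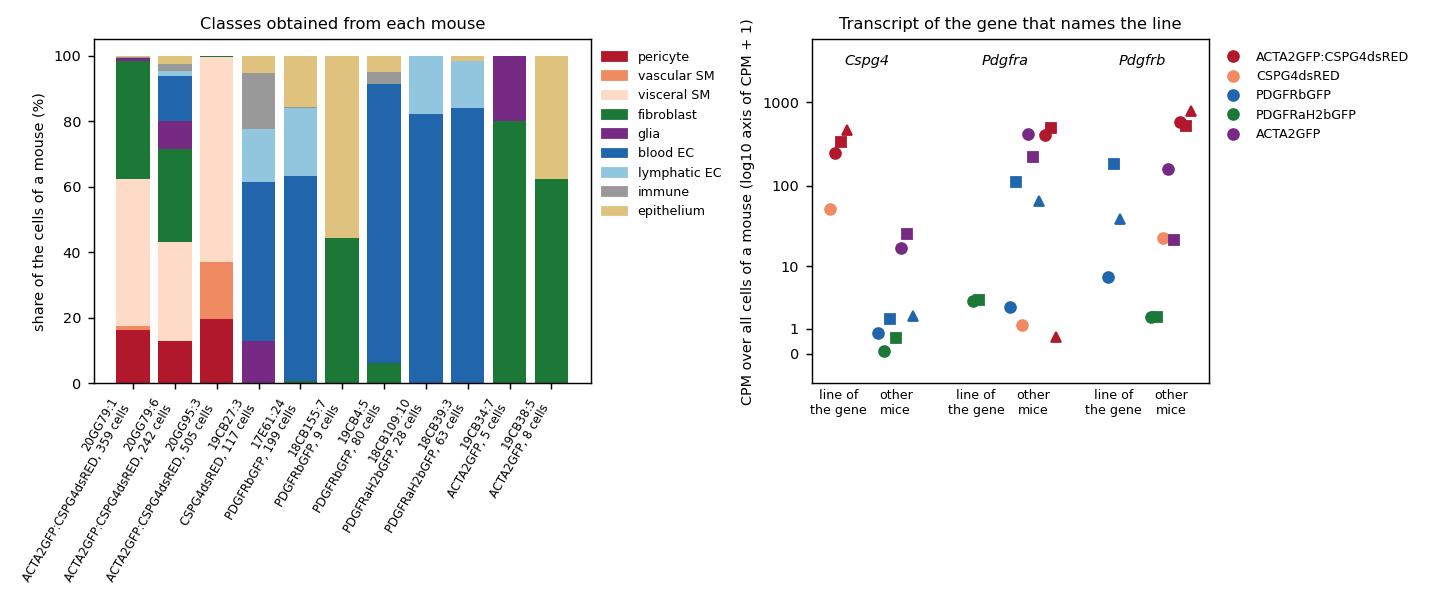
Left, share of each mouse's cells by class (y axis, %); right, CPM of the gene naming a line over all cells of a mouse (y axis, log10 axis of CPM + 1), in mice of that line and in the other mice. The mice of the Cspg4 lines lie at 51.7 CPM or more and all others at 25.6 CPM or less, while mice of the 2 PDGF receptor lines lie within the range of the others.

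The machinery around these genes was read from 5 lists: ligand processing, related receptors and ligands, signal relay, negative regulators, and Cspg4 partners. In the signal relay, which holds the kinases and adaptors downstream of the receptors, 0 or 1 of the 34 to 38 genes tested passed in each of the 8 comparisons, near the share over all genes. The single calls were Gab1, an adaptor, lower in visceral than in vascular smooth muscle-like cells (log2 fold change -2.93 ± 0.78, adjusted p = 0.00758 by edgeR), and Plcg1, a phospholipase, lower in fibroblast-like than in blood endothelium-like cells (-3.41 ± 0.91, adjusted p = 0.00977 by edgeR). Each is 1 of 36 or 37 genes, where 3.43% and 2.71% of all genes passed. List calls from contrasts of 2 mice could be tried without either mouse only in the fit over all classes. With all mice kept, it called 2 genes in pericyte-like and 41 in visceral against vascular smooth muscle-like cells. In fibroblast-like cells it called 1 against visceral smooth muscle-like, 19 against pericyte-like and 176 against blood endothelium-like cells. With either mouse left out it called 0 in these comparisons with smooth muscle-like cells. It then called at most 2 in fibroblast-like against pericyte-like cells, and 1 or 46 in fibroblast-like against blood endothelium-like cells. The missing mouse and the change of fit cannot be told apart, so whether a list call needs both mice is unknown.

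Of the Cspg4 partners and related proteoglycans, 3 of 8 tested were higher in pericyte-like than in vascular smooth muscle-like cells and 0 lower, where 0.493% of all genes were higher. These were the collagen VI chains, Cspg4 ligands: Col6a1 (log2 fold change 3.40 ± 0.43), Col6a2 (2.09 ± 0.42) and Col6a3 (2.01 ± 0.50), at adjusted p of 6.52e-12, 0.000137 and 0.00608 by edgeR. In visceral against vascular smooth muscle-like cells 5 of 9 were higher and 0 lower, where 1.83% of all genes were higher, among them Col6a1 (2586 ± 144 against 148 ± 43.2 CPM) and the membrane protease gene Mmp14 (298 ± 92.4 against 51.3 ± 48.7 CPM). In fibroblast-like against blood endothelium-like cells 5 of 8 were higher and 0 lower (1.37% of all genes higher), again with Col6a1, Col6a2 and Col6a3. In fibroblast-like against pericyte-like cells 1 of 10 passed, Col6a2 at 2.15 ± 0.24 (0.263% of all genes higher). In pericyte-like against visceral smooth muscle-like cells 0 of 9 passed.

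Of the related receptors, coreceptors and ligands, 3 of 7 tested were higher in pericyte-like than in vascular smooth muscle-like cells, again beside 0.493% of all genes. They were the neuropilin genes Nrp1 (526 ± 121 against 31.7 ± 34.6 CPM) and Nrp2 (227 ± 55.8 against 9.85 ± 6.00 CPM), whose products are coreceptors of several growth factors, and Lrp1 (645 ± 94.2 against 114 ± 89.7 CPM), an endocytic receptor known to modulate the beta receptor. In visceral against vascular smooth muscle-like cells Nrp2, Lrp1 and Csf1 were higher, 3 of 8 tested (1.83% of all genes). Between the endothelial classes Nrp1 was lower (16.4 ± 5.81 against 1400 ± 216 CPM) and Nrp2 higher (402 ± 91.0 against 88.6 ± 32.7 CPM) in lymphatic cells, and Kitl, the ligand of the related receptor Kit, was lower at -5.74 ± 0.76 (n = 4).

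Ligand processing held calls in 5 of the 8 comparisons. In visceral against vascular smooth muscle-like cells 2 of 6 tested were higher and 1 lower, beside 1.83% and 1.60% of all genes. In pericyte-like against vascular smooth muscle-like cells 1 of 6 was lower (0.855%). Fibroblast-like cells had 1 of 7 higher than visceral smooth muscle-like cells (0.513%) and 1 of 7 higher than blood endothelium-like cells (1.37%). Lymphatic against blood endothelium-like cells had 1 of 6 higher (0.969%). Plat, the tissue plasminogen activator that can release active PDGF-C, had 268 ± 32.6 CPM in vascular smooth muscle-like cells, above 37.1 ± 17.1 CPM in pericyte-like cells and the visceral class, at 34.8 ± 4.25 CPM (adjusted p = 0.00604 and 0.00107 by edgeR, n = 2). It was also higher in fibroblast-like than in visceral smooth muscle-like cells (198 ± 61.5 against 43.2 ± 16.1 CPM, adjusted p = 0.0462 by edgeR). The class with the highest Pdgfc thus had less Plat than its vascular and fibroblast neighbours. The convertase genes Pcsk5 and Pcsk6 were higher in visceral than in vascular smooth muscle-like cells, by 4.44 ± 1.16 and 6.67 ± 1.92 on the log2 scale, Pcsk5 was higher in fibroblast-like than in blood endothelium-like cells, and Pcsk6 was higher in lymphatic than in blood endothelium-like cells.

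Of the negative regulators, 1 of 15 passed in pericyte-like against visceral smooth muscle-like cells, where 1.61% of all genes did. It was Spry4, a feedback inhibitor of receptor tyrosine kinases, with 92.6 ± 13.2 against 3.98 ± 2.44 CPM (log2 fold change 4.68 ± 0.68, adjusted p = 0.0274 by edgeR). Spry4 was also lower in visceral than in vascular smooth muscle-like cells (5.11 ± 2.06 against 98.4 ± 4.78 CPM, adjusted p = 0.0449 by edgeR), so both classes with the highest Pdgfrb had the higher Spry4. Socs3, an inhibitor of cytokine signalling, had 1329 ± 229 CPM in vascular smooth muscle-like cells against 173 ± 143 CPM in pericyte-like cells, and the visceral class had 250 ± 15.2 CPM. Spry1 was higher in fibroblast-like than in visceral smooth muscle-like cells, at 2.56 ± 0.36 (adjusted p = 0.0363 by edgeR).

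The genes with the most similar pattern were sought over the 30 sums of mice and classes among 9437 genes. Sums of a mouse share its line and plate, and sums of a class its cell type, so each Pearson r is a description. Of the genes named below, Ano1, Ednra, Dpt, Myl9, Atp1b2 and Slc7a8 were used to form the clusters, which can raise their r. Pdgfrb was most like Ano1 (r = 0.95), a calcium-activated chloride channel, Ednra (0.94), an endothelin receptor, and Pde3a (0.93), a phosphodiesterase. Pdgfra was most like Htra3 (0.92), Medag (0.88) and Dpt (0.88), the last a fibroblast marker. Cspg4 was most like Myl9 (0.90), a myosin light chain, Atp1b2 (0.89) and P3h2 (0.88).

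For the ligands the closest genes were less close. Pdgfd was most like Ptprr (0.86), a phosphatase, Pdgfb most like Hip1 (0.85), Pdgfc most like Wscd2 (0.78) and Slc7a8 (0.78), and Pdgfa most like Dst (0.72) and Gjc3 (0.69), a connexin of glia. Among the 7 genes themselves the highest r was that of Pdgfrb and Cspg4 (0.82), followed by Pdgfra and Pdgfrb (0.42). Pdgfb and Pdgfd, both high in blood endothelium-like cells, had an r of 0.28. Glia-like cells, for example, held Pdgfb at 185 and 186 CPM and Pdgfd at 0.326 and 1.29 CPM.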

How the data were processed

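The deposited table holds raw read counts per Ensembl gene and spike-in for each cell, with no normalization. Per the submitters' processing notes, bcl2fastq, Bowtie, Bowtie2, featureCounts and Subread were used with builds GRCm38 and mm10, and these notes give no role or version, and no strand setting is stated. Reads of the overlapping genes 6330403L08Rik (Pdgfa), Gm41361 and Mir7213 (Pdgfb), Gm16000 (Pdgfc), Ddi1 (Pdgfd), and Gm42802, Gm42803 and Mir7025 (Pdgfra) may therefore not be parted from those of the members. The members, lists, markers and tests were chosen with earlier results of these data known.

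CPM was computed from the deposited counts over the gene rows without the 92 spike-ins. Cells were clustered on 2045 genes, namely the markers and 2000 variable genes from every other symbol in alphabetical order, members and pathway lists left out of the latter, with scanpy 1.11.5 (20 principal components, 15 neighbours, Leiden resolution 1 through igraph 0.11.9). A class needed 3 markers in 25% of a cluster. Counts were summed per mouse and class (at least 5 cells) and tested with edgeR 4.0.16 under R 4.3.3 (TMM, filterByExpr, robust fit, mouse as a block). The SE is the log2 fold change over the square root of F. Contrasts of 2 mice leave 1 residual degree of freedom, those of 3 and 4 mice 2 and 3, and the fit over all classes 12. The numbers pair the samples because both sums come from the same animal. Line tests were exact permutation tests of log2(CPM + 1) over mice, two-sided, adjusted over 6. Alternatives were DESeq2 1.42.0, RLE factors, no filter on low counts, no block, resolution 0.5, no cells of mixed markers, a fit over all classes and leaving out each mouse. Leaving out each plate of 20GG95:3 was added after seeing the data. Leaving out a mouse of a 2-mouse contrast used the fit over all classes, where the lone sum is assumed to vary like the others.

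All 7 members are named throughout. Of the lists, up to 4 called genes per direction and contrast were named by smallest p. Genes of like pattern are the highest Pearson r of log2(CPM + 1) among genes with at least 50 CPM in a class. The fibroblast clusters are described by all genes of 3 subset lists. The genes leading the visceral cluster 13 were picked for the text after their values were seen.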

Additional observations from a re-analysis of the deposited data

Results flagged for a closer look

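In 9 of 28 groups of a gene and a class with 4 to 6 mice, the highest mouse lay farther from the next than Dixon's 95% limit allows. That limit assumes normally spread values, while CPM cannot fall below 0 and several groups held mostly values near 0. How many groups chance would flag is therefore unknown, and the 9 are only places to look. The mouse 19CB27:3, the only mouse of CSPG4dsRED, accounted for 4. Its lymphatic endothelium-like cells had 94.9 CPM of Pdgfb (next mouse 1.65), 15.1 CPM of Cspg4 (next 1.16) and 0.671 CPM of Pdgfc (all others 0), the last from 2 counts. Its blood endothelium-like cells had 36.4 CPM of Pdgfc (next 1.23), from 2 of 57 cells.

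The mouse 20GG79:6 accounted for 3. Its blood endothelium-like cells had 66.8 CPM of Cspg4 (next 6.54), its fibroblast-like cells 1.05 CPM of Pdgfb (next 0.132) and its 6 epithelium-like cells 814 CPM of Pdgfra (next 52.8). The fibroblast-like cells of 20GG79:1 had 15.1 CPM of Pdgfc (next 2.49). The 5 lymphatic endothelium-like cells of 18CB109:10 had 5.79 CPM of Pdgfra (next 1.63).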

How the results depend on the processing

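Of 17 calls of members within mice, 16 held with DESeq2, with RLE factors and with no filter on low counts, 17 at resolution 0.5, 15 without mixed cells, 14 without the mouse block that pairs the sums, 5 in the fit over all classes and 10 of 40 when mice were left out one by one, and 0 reversed. RLE factors moved the median of all genes by -0.147 (log2) for visceral minus vascular smooth muscle, 0.206 for fibroblast minus blood endothelium and 0.189 for lymphatic minus blood endothelium. Counts of genes called moved more. In contrasts of 2 mice, leaving out a mouse also changed to the fit over all classes. Pericyte against visceral smooth muscle gave 227, and 1574 by DESeq2, 382 unfiltered, 370 without the block, 10 in the fit over all classes and 0 to 197 with a mouse left out (0 without 20GG79:6). Pericyte against vascular smooth muscle gave 175, and 387, 13 without the block, 2, 114 without the smaller plate of 20GG95:3, 28 without the larger, and 0 without either mouse, where edgeR had 547 and 1066 genes at an unadjusted p under 0.05. Visceral against vascular smooth muscle gave 505, and 828, 146, 41, 317 without the larger plate, and 0 without either mouse. Fibroblast against pericyte gave 65, and 1316 by DESeq2, 257 unfiltered, 35 without mixed cells, 81 without the block, 19 over all classes and 0 to 2 with a mouse left out. Fibroblast against visceral smooth muscle gave 167, and 1281, 628, 259, 105 without the block, 1 and 0. Fibroblast against blood endothelium gave 357, and 1520 by DESeq2, 410 without the block, 176 over all classes and 1 to 46. Lymphatic against blood endothelium gave 213, and 1506, 429 unfiltered, 330 without the block, 545 over all classes and 139 to 183. Differences that turned sign had passed in no comparison. From pericyte minus vascular smooth muscle these were Pdgfa (0.02 over all classes, 0.68 without 20GG79:1), Pdgfc (0.03 without 20GG95:3), Pdgfd (-0.51 without mixed cells) and Cspg4 (0.04 over all classes, 0.06 and 0.13 with a mouse left out). Pdgfra turned in visceral minus vascular smooth muscle (-0.14 without mixed cells, -0.74 without 20GG79:1). In fibroblast minus visceral smooth muscle, Pdgfb turned (-0.40 without the block, -0.03 over all classes, -0.44 without 20GG79:1), as did Pdgfd (0.17 over all classes, 1.39 without 20GG79:6). In fibroblast minus blood endothelium, Pdgfc (-0.64 over all classes, -0.41 and -4.44 with a mouse left out) and Cspg4 (-0.05 without 20GG79:6) turned, and Pdgfa in lymphatic minus blood endothelium (-0.01 over all classes). The line difference of Pdgfrb ran from -1.70 to 0.54 and that of Cspg4 from 5.44 to 6.49 with a mouse left out, and with at least 10 cells the latter was 6.96. The causes were not tested. Blood endothelium against pericyte had 1 shared mouse, so its alternatives were not run. Glia-like, immune-like and epithelium-like sums rest on 2 to 4 mice and were not tested. Depth limits shares of cells: for Pdgfra, blood endothelium-like cells went from 40.4% to 20.9% on thinning.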
